A study of Homo sapiens with 8 samples.

Results

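The sites described here are the strong binding sites of GATA4 that carry no HNF4A peak in ESO26, an oesophageal adenocarcinoma line kept in culture. They are the peaks of the GATA4 list with a −log10 q of at least 10 that share not even 1 bp with any peak of the HNF4A list. This choice left 838 of 2607 GATA4 peaks, referred to as members below. A further 220 GATA4 peaks were as strong and overlapped an HNF4A peak, while 1316 lay under the threshold without HNF4A and 233 lay under it with HNF4A. Each list came from 1 ChIP-seq library: GATA4 was precipitated through a Flag tag with an anti-Flag antibody, and HNF4A with an antibody to the protein itself. The sites are therefore those of tagged GATA4, whose amount in the cells is not given in the sources used here. RNA-seq of the same line comprised 2 control libraries and 2 libraries after siRNA knockdown of HNF4A, a treatment that the ChIP-seq labels do not name. The submitters' design text speaks of triplicates for the RNA-seq, and 2 libraries per group were analysed here. The members were chosen by measured values, the −log10 q of the GATA4 peaks and their overlap with HNF4A peaks, so both are given as description and without a test. With 1 library per factor no value at a site has a replicate check.

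GATA4 is a zinc-finger transcription factor of the heart and of endoderm-derived organs, where it acts in the development and upkeep of stomach, small intestine and liver. It reads short DNA words with GATA at their core, can bind compacted chromatin, and often works together with its relative GATA6 and with partners such as the FOG proteins. HNF4A is a nuclear receptor of liver and gut epithelium. The 2 factors share many enhancers in gastrointestinal cells. The members are the strong GATA4 peaks at which the HNF4A list shows no overlapping peak, which does not mean that HNF4A is absent there.

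The fold enrichment and the probability that the authors deposited for each peak allowed the evidence behind it to be read back as fragments. Fold was taken as the number of fragments over the summit plus 1, divided by the local background plus 1, and the p-value as the Poisson chance of more fragments than that at this background. Exactly 1 whole number of fragments met both values, to within 0.001 of −log10 p, in all 2607 GATA4 peaks, and in 5493 of 5494 HNF4A peaks. The most frequent local background was 0.791 fragments in the GATA4 list and 1.169 in the HNF4A list. These numbers give the depth behind each site, and the intervals below are exact 95% Poisson or binomial intervals that cover counting error only.

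A typical member rested on few fragments. The median over the 838 members was 21 fragments at the summit, with quartiles of 17 and 26, at a median background of 1.09 fragments and a median fold of 9.61. At the most frequent background the weakest member had 15 fragments (interval 8.40 to 24.7), and the strongest GATA4 peak that missed the threshold had 14 (7.65 to 23.5). The threshold thus divided sites 1 fragment apart, whose intervals overlap almost fully. The members nearest above it lay at chr17:77110825-77111283 with a −log10 q of 10.01 and at chr1:3209795-3210160 and chr2:68948623-68948934 with 10.04. Nearest below it were an HNF4A-overlapping peak at chr6:46029874-46030339 with 9.91 and 2 peaks without HNF4A, at chr1:201278516-201278980 and chr1:235099183-235099522, with 9.89. A lower interval bound above 14 fragments was reached by 335 of the 838 members, or 39.98%, against 114 of the 220 strong sites with HNF4A, or 51.8%. With a fold of at least 3 it was reached by 306 of 809 members, or 37.8%, and by 106 of 212 strong sites with HNF4A, or 50%. The mark of 14 belongs to the most frequent background only, and 20 of the 1316 sites under the threshold without HNF4A reached it too. In the HNF4A list the weakest peak at its most frequent background held 9 fragments, so a site with fewer HNF4A fragments than that would count as having no HNF4A peak.

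**Figure D1:**
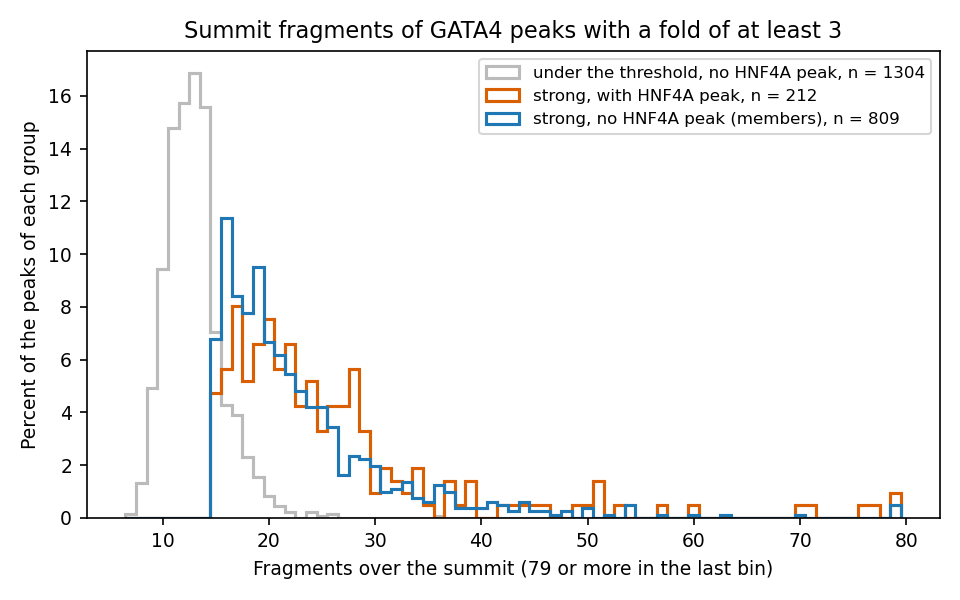
Percent of the peaks of each group (vertical axis) by the number of fragments over the summit (horizontal axis, 79 or more in the last bin) for peaks with a fold of at least 3. The 809 members start at 15 fragments and crowd just above that value, the 212 strong peaks with HNF4A have the same lower limit and a median of 22.5, and the 1304 peaks under the threshold without HNF4A have a median of 13.

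Among the GATA4 peaks with a fold of at least 3, the share without HNF4A was 88.3% (80.03 to 94.0%) of 94 peaks with 7 to 9 fragments and 85.5% (83.3 to 87.5%) of 1104 with 10 to 14. It was 83.4% (80.51 to 86.1%) of 724 peaks with 15 to 19 fragments and 76.4% (72.3 to 80.2%) of 470 peaks with 20 to 29. Of the 153 peaks with 30 to 60 fragments 76.5% (68.9 to 82.9%) had no HNF4A peak. Above 60 fragments 6 of 12 had none, an interval of 21.1 to 78.9%. Both quantities entered the choice of members, so these shares are a description only. Members of this kind numbered 355 with 15 to 19 fragments, 333 with 20 to 29, 115 with 30 to 60 and 6 with more, so that most of them sat in the lower bins.

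The 15 members with the largest fold lay on 9 chromosomes, and all of them stood on a background of at most 2.5 fragments. The first was chr4:124270484-124271325, with 54 fragments (interval 40.6 to 70.5) on a background of 0.873 and a fold of 29.4. The second, chr10:3528545-3529028, had 48 fragments (35.4 to 63.6) and a fold of 26.2, and the third, chr1:239376067-239376739, had 45 (32.8 to 60.2) and a fold of 25.7. The fragment intervals of these 3 sites overlap, so their order is not set by the counts. The next were chr10:60228239-60228780 with 44 fragments, chr1:47789114-47789763 with 46 and chr10:77164769-77165327 with 43, at folds of 25.1, 25.1 and 24.6. A broader site, chr12:104613160-104614139, spanned 980 bp and again held 54 fragments at a fold of 24.4. The site chr13:27530433-27531124 held the most fragments of the 15, 60 (45.8 to 77.2), at a fold of 24.3 because its background was 1.51. It was also the 1 site of the 15 with another GATA4 peak within 10 kb, at 4191 bp, and it had an HNF4A peak 4082 bp away.

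The remaining sites of the 15 ran from a fold of 24.0 down to 21.2. Chromosome 17 gave chr17:69325310-69325961 with 42 fragments and chr17:70409351-70410005 with 41. They differed in their surroundings, since the nearest HNF4A peak lay 1097702 bp from the former and 13658 bp from the latter. Then came chr2:227537749-227538668 with 47 fragments, chr13:47971780-47972405 with 57, chr3:193720750-193721369 with 40 and chr14:64144475-64145048 with 44. The last was chr1:68152282-68152835 with 37 fragments (26.1 to 51.0), and an HNF4A peak lay 1146 bp from it. Of the 15, 2 had an HNF4A peak within 10 kb and 5 had one within 100 kb, where 12.8% and 46.3% of all members did. No gene is assigned to these positions, since no annotation of hg19, the build named in the submitters' processing notes, was used here, and for the same reason no site sequence is shown.

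Ranking by −log10 q instead of fold put another site first. The member chr17:37938431-37939352 had 228 fragments (199 to 259.6) on a background of 11.8, which gave the highest −log10 q of all members, 193, but a fold of 17.9 that ranked 40. The next highest −log10 q was 70.3, at the chromosome 4 site that led by fold. At the chromosome 17 site a background 14.9 times the most frequent value of the list accompanied the lower fold.

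A small set of members passed the threshold on a very high background. For 29 members, or 3.46%, the fold was between 1.62 and 2.56, and no other member had a fold below 5.29. They held 229 to 525 fragments on backgrounds of 95.7 to 287 fragments, against the median background of 1.09 over all members. These 29 sites lay on 10 chromosomes, many in tight groups: 7 between 42387082 and 42600324 on chromosome 10, 4 between 46391207 and 46407041 on chromosome 16, 3 between 51579424 and 51591302 on chromosome 11 and 3 between 92307232 and 92325317 on chromosome 2. Of the 29, 27 had another GATA4 peak within 10 kb and 8 had an HNF4A peak that close. A fold under 3 occurred in 3.46% (2.33 to 4.93%) of the members, in 3.64% (1.58 to 7.04%) of the 220 strong sites with HNF4A and in 0.912% (0.472 to 1.59%) of the 1316 weaker sites without HNF4A. The members' interval overlaps that of the strong sites with HNF4A and lies above that of the weaker sites. Fold and −log10 q rest on the same fragments and background, and −log10 q split these classes, so the shares are a description only. Reference assemblies hold few copies of satellite repeats that are abundant in the genome, and reads from all copies then fall on those few, mostly next to centromeres. Whether these 29 sites lie in such repeats was not looked up here.

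**Figure D2:**
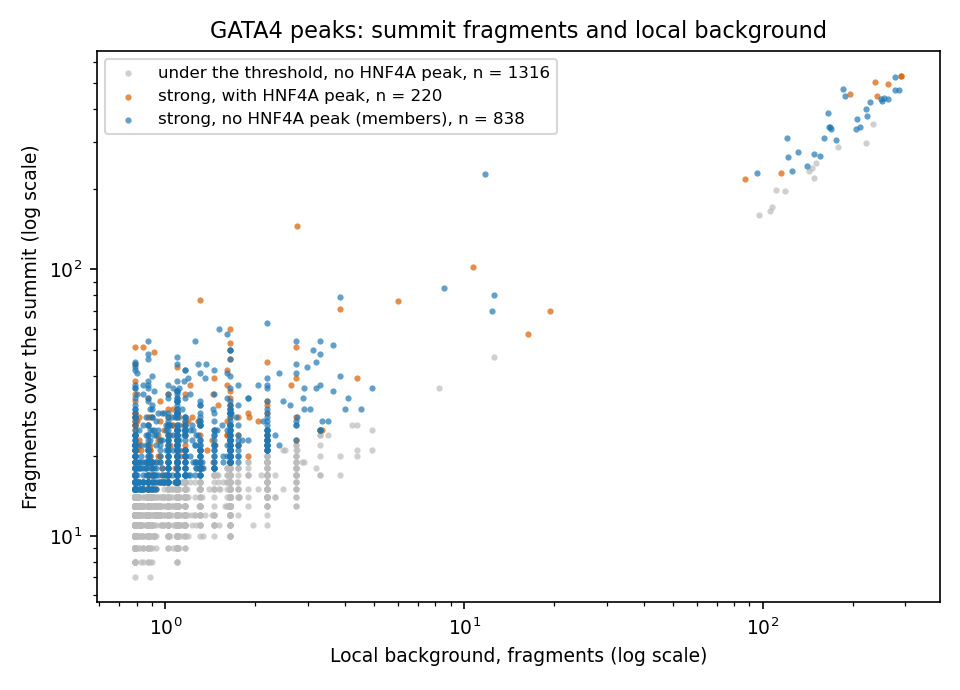
Fragments over the summit (vertical axis, log scale) against the local background in fragments (horizontal axis, log scale) for 838 members, 220 strong GATA4 peaks with HNF4A and 1316 peaks under the threshold without HNF4A, 1 point per peak. The 29 members with a fold under 3 form the cloud at the upper right, at backgrounds of 95.7 and more, apart from the 809 others, whose background reaches at most 12.6.

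The densest groupings of members coincided with raised background. Both 100-kb windows with the most members, 4 each, consisted of the low-fold sites of chromosomes 10 and 16. Of the 3 windows of 1 Mb with the most members, 7 each, 1 was the same place on chromosome 10. The other 2 windows overlapped on chromosome 12, from 46758819 to 47670759 and from 47398407 to 48333147, where the member backgrounds lay between 2.90 and 4.92. A longer stretch of chromosome 12, from 43355076 to 48333147 and singled out after its values were seen, held 21 members with 22 to 54 fragments and folds of 5.62 to 12.8. Their median background was 4.05 times the most frequent value of the list.

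The HNF4A list gave almost the same multiple there. In the chromosome 12 stretch the median background of its 33 HNF4A peaks was 4.21 times the most frequent value of that list. On chromosome 17, between 36889080 and 37939352, a stretch also singled out after its values were seen, 4 members had backgrounds of 8.59 to 12.6, a median of 15.3 times the most frequent value, and the 26 HNF4A peaks of that stretch had a median of 16.6 times, with the lowest at the most frequent value itself and the highest at 23.2 times. Among members on the chromosomes other than 12 and 17 with a fold of at least 3 the median was 1.38 times, and among such HNF4A peaks it was 1.40 times. Single peaks there also stood on raised background, up to 4.84 times for members and 22.5 times for HNF4A peaks. Each list has 1 library, and whether both were called against the same control is not given in the sources used here, so the 2 readings may share reads. Copy number was not measured in the data used here.

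**Figure D3:**
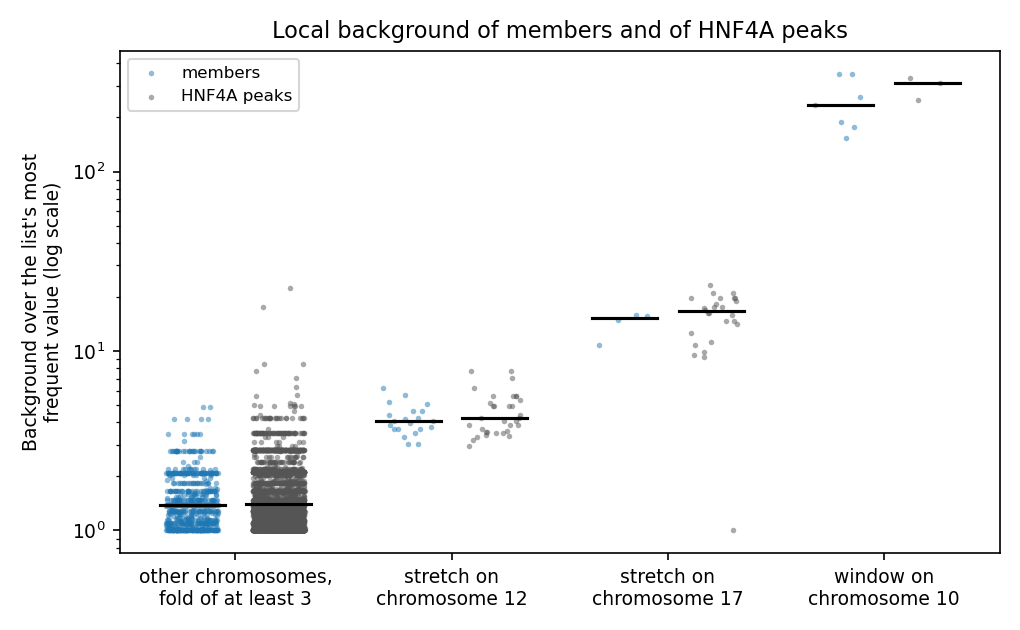
Local background as a multiple of each list's most frequent value (vertical axis, log scale) for members and HNF4A peaks on the other chromosomes (fold of at least 3), in the chromosome 12 and chromosome 17 stretches and in the 1-Mb window of chromosome 10; points are peaks and bars are medians. Backgrounds are raised in both lists, to medians of 4.05 and 4.21 on chromosome 12 and of 15.3 and 16.6 on chromosome 17.

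The surroundings of the members were then searched for HNF4A. An HNF4A peak lay within 10 kb, without overlap, at 107 of the 838 members, which is 12.8% (10.6 to 15.2%). Closer neighbours were few, at 19 members within 1 kb and 11 within 500 bp. The median gap to the nearest HNF4A peak was 115066 bp, 450 members had none within 100 kb, and 62 had none within 1 Mb. Among the strong sites that do overlap HNF4A, 22.3% (16.96 to 28.4%) had a further HNF4A peak within 10 kb, and among weaker GATA4 sites without HNF4A the share was 10.3% (8.67 to 12.03%). The members' interval overlaps that of the weaker sites and lies wholly below that of the strong sites with HNF4A. With a fold of at least 3 the shares were 12.2%, 22.2% and 10.2%. The classes were formed by HNF4A overlap, so this difference is a description and was not tested.

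Among members with a fold of at least 3 the share was compared across fold. With a fold of 5 to 8, 13.7% (6.77 to 23.8%) of 73 members had an HNF4A peak within 10 kb. With a fold of 8 to 12 the share was 11.97% (9.36 to 15.002%), and with a fold of 12 to 20 it was 12.8% (8.19 to 18.7%). For the 21 members with a fold of 20 or more it was 9.52% (1.17 to 30.4%), and all these intervals overlap. Of the 29 members with a fold under 3, 8 had an HNF4A peak within 10 kb. Members and strong sites with HNF4A were also set side by side at like numbers of fragments and a fold of at least 3. With 15 to 19 fragments 10.4% (7.45 to 14.1%) of 355 members and 20.3% (11.3 to 32.2%) of 64 strong sites with HNF4A had a non-overlapping HNF4A peak within 10 kb. With 20 to 29 fragments 12.6% (9.24 to 16.7%) of 333 members and 22.6% (15.1 to 31.8%) of 106 strong sites with HNF4A had one. With 30 to 60 fragments the shares were 16.5% (10.3 to 24.6%) of 115 and 22.2% (10.1 to 39.2%) of 36. In each of these bins the 2 intervals overlap.

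**Figure D4:**
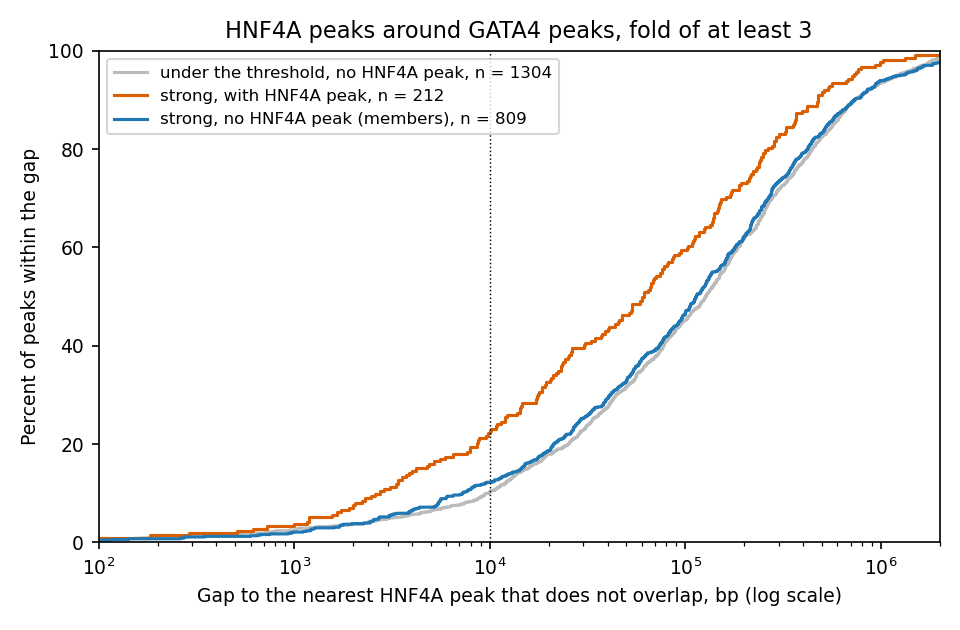
Percent of peaks (vertical axis) with a non-overlapping HNF4A peak within the gap on the horizontal axis (bp, log scale; the dotted line marks 10 kb), for peaks with a fold of at least 3. The members follow the weaker GATA4 sites without HNF4A, with 12.2% and 10.2% at 10 kb, and the strong sites with HNF4A run above both, with 22.2%.

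The 3 members closest to HNF4A had gaps of 13 to 48 bp. At chr14:56443133-56443502, with 16 GATA4 fragments, the HNF4A peak ended 13 bp away, and the summits of both factors were 558 bp apart. At chr12:48213639-48213971, with 30 GATA4 fragments on a background of 4.51, an HNF4A peak with a fold of 2.91 began 14 bp away and the summits were 229 bp apart. At chr2:124838294-124838620 the gap was 48 bp, between 20 GATA4 fragments and 11 HNF4A fragments. These sites count as members under the rule although both factors have a peak there. The 116 HNF4A peaks within 10 kb of a member had a median fold of 5.74, against 6.31 over the whole HNF4A list. For the 108 of them with a fold of at least 3 the median was 5.99. Of these 116, 35.3% (26.7 to 44.8%) had a −log10 q of at least 10, against 32.3% of all HNF4A peaks and 49.5% (42.8 to 56.3%) of those that overlap a strong GATA4 peak.

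Members were mostly solitary GATA4 sites. The median gap from a member to the nearest other GATA4 peak was 207734 bp, and 93 of the 838, or 11.1% (9.05 to 13.4%), had one within 10 kb. Without the 29 low-fold sites the share was 8.16% (6.37 to 10.3%), close to the 8.13% (6.70 to 9.75%) of weaker sites without HNF4A and to the 11.3% (7.39 to 16.4%) of strong sites with HNF4A, and the intervals overlap. Of the 30 members within 1 kb of another GATA4 peak, 15 were low-fold sites. Of the 66 members with a fold of at least 3 and a GATA4 neighbour within 10 kb, the nearest such peak was another member in 22, a strong site with HNF4A in 6, a site under the threshold without HNF4A in 34 and one under it with HNF4A in 4.

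Peak width and summit position were compared as well. Member peaks had a median width of 439 bp with quartiles of 373 and 532.8 bp, and the summit lay within 50 bp of the centre in 73.9% (70.8 to 76.8%). Strong sites with HNF4A had a median width of 484.5 bp, and 67.3% (60.6 to 73.4%) had a central summit, and these 2 intervals overlap. Weaker sites without HNF4A had a central summit in 67.2% (64.6 to 69.7%), an interval below that of the members. At 20 to 29 fragments and a fold of at least 3, the medians were 454 bp for members and 488 bp for strong sites with HNF4A, and the quartile ranges, 402 to 534 bp and 419 to 575 bp, overlap widely.

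On 5 chromosomes the interval of the members' share lay apart from that of the HNF4A peaks. Chromosome 6 held 85 members, 10.1% (8.18 to 12.4%), against 7.30% (6.62 to 8.02%) of the HNF4A peaks. The weaker GATA4 sites without HNF4A had 9.19% (7.69 to 10.9%) there and the strong sites with HNF4A 7.27% (4.21 to 11.5%). Both intervals overlap that of the members and that of the HNF4A peaks. Chromosome 19 held 3 members, 0.358% (0.0739 to 1.04%), and 2 of these were low-fold sites, against 2.91% (2.48 to 3.39%) of the HNF4A peaks. The members' share was also below that of HNF4A on chromosomes 9, 16 and 20. On chromosome 9 there were 19 members, 2.27% (1.37 to 3.52%), against 4.31% (3.79 to 4.88%) of the HNF4A peaks and 4.71% (3.63 to 5.999%) of the weaker GATA4 sites without HNF4A. On chromosome 16 there were 14 members, 1.67% (0.916 to 2.79%), 4 of them low-fold sites, against 3.90% (3.40 to 4.44%), and on chromosome 20, which carries the HNF4A gene, 12 members, 1.43% (0.742 to 2.49%), against 3.20% (2.75 to 3.70%). The weaker GATA4 sites without HNF4A had 1.82% (1.17 to 2.70%) on chromosome 16 and 1.98% (1.29 to 2.88%) on chromosome 20. Both intervals overlap those of the members. The interval of chromosome 16 lies below that of the HNF4A peaks, and the interval of chromosome 20 overlaps it. On chromosome 19 the share of these weaker sites was 1.29% (0.754 to 2.06%), which overlaps that of the members. The strong sites with HNF4A numbered only 2 to 5 on each of chromosomes 9, 16, 19 and 20. They had 2.27% (0.742 to 5.22%) on chromosome 9 and 1.36% (0.282 to 3.93%) on chromosomes 16 and 20 each. On chromosome 19 they had 0.909% (0.110 to 3.25%). All of these intervals overlap both those of the members and those of the HNF4A peaks, so these counts are too small to side with either. Differences between the classes were not tested.

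**Figure D5:**
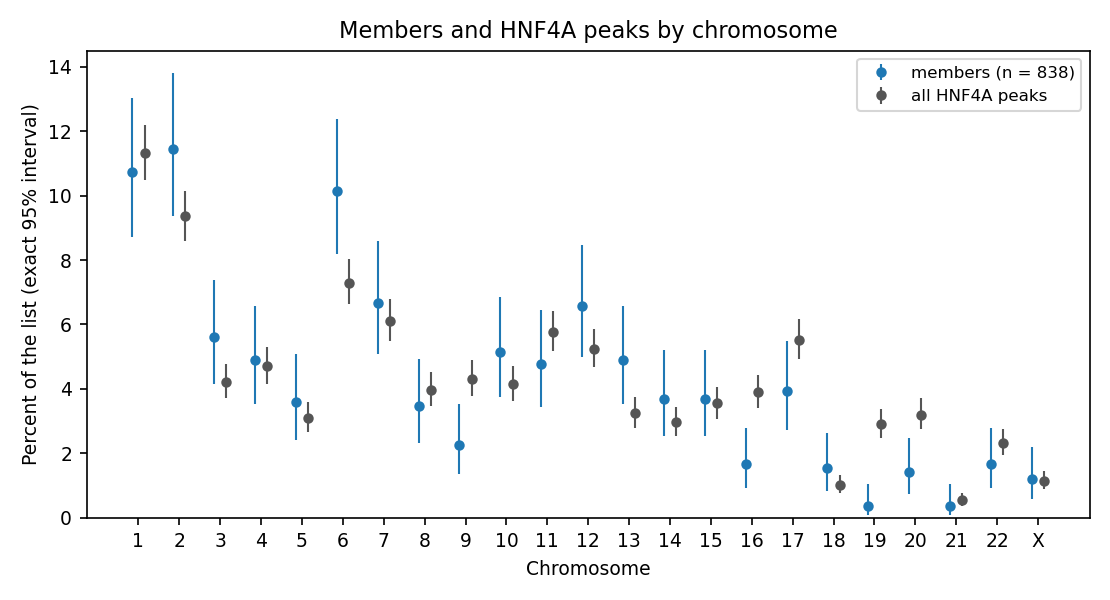
Percent of the 838 members (blue) and of all 5494 HNF4A peaks (grey) on each autosome and chromosome X; points are shares and bars exact 95% intervals. Members exceed HNF4A peaks on chromosome 6, with 10.1% against 7.30%, and fall below them on chromosome 19, with 0.358% against 2.91%, and on chromosomes 9, 16 and 20.

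RNA of the GATA factors and of their cofactors was read in the control and knockdown libraries, as normalized counts. Whether these are per length is not given in the sources used here, so they are not compared between genes. GATA4 had 745 and 597 normalized counts in the control libraries and 553 and 432 in the knockdown libraries, so both knockdown values lay below both control values. The log2 difference of GATA4, knockdown minus control, was -0.45 (SE 0.15), and limma gave an adjusted p = 0.0709, which is not past the threshold of 0.05. This value turned on single libraries. Without control replicate 1 it was -0.29 (limma, adjusted p = 0.213) and without siHNF4A replicate 2 it was -0.27 (adjusted p = 0.350). Without control replicate 2 it was -0.61 (adjusted p = 0.00845) and without siHNF4A replicate 1 it was -0.62 (adjusted p = 0.0410). Each of these fits leaves 1 library in a group, which is assumed to vary like the other group, so none of them settles the call. GATA6, the relative that shares many GATA4 sites in the gut, had 1377 and 1410 normalized counts without knockdown and 1342 and 1396 with it, and the groups overlapped. The targeted gene HNF4A itself stood at 4129 and 3937 without knockdown and at 1140 and 932 with it, a log2 difference of -1.97 (limma, adjusted p = 1.59e-05). In bulk RNA fewer cells and less RNA per cell cannot be told apart.

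GATA1, GATA2 and GATA3 had at most 29.8 normalized counts in any library. GATA1, the blood factor, had at most 1.08 normalized counts in any library and GATA2 at most 4.87, and both were too low to be tested. GATA3, a factor of T cells and breast and squamous epithelium, ranged from 3.71 to 29.8, and GATA5 was not analysed here. TRPS1, an atypical GATA protein that represses, had 23.2 and 39.3 without knockdown and 59.1 and 60.9 with it (limma, adjusted p = 0.0750). The FOG cofactors, which bind GATA zinc fingers, had higher values in both knockdown libraries without passing the test: ZFPM1 had 313 and 291 against 377 and 353, and ZFPM2 had 52.2 and 61.1 against 77.2 and 105. Their adjusted p in limma was 0.178 and 0.108. The acetyltransferase EP300 had 2213 and 2276 against 2052 and 2011 (limma, adjusted p = 0.195), and its relative CREBBP had 3667 and 3951 against 3679 and 3937. LMCD1, a partner that restrains GATA6, had at most 5.94 in any library. Of the 11 genes of this list with values 8 were tested and 0 were called by limma, where 14.1% of all 15577 tested genes were called, 6.02% higher and 8.11% lower. Without the variance trend limma called 0 of all genes, HNF4A included, while 3524 had an unadjusted p under 0.05. In the fit with the trend, at an unadjusted p under 0.05 there were 3 of the 8 (GATA4, TRPS1 and ZFPM2), where 28.9% of all tested genes reached that level, and the median log2 difference of the list was 0.14 against -0.0073 over all tested genes.

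The label of an adenocarcinoma line was checked gene by gene against markers. All 8 columnar or gastrointestinal epithelial markers had normalized counts in every library, from 16.4 to 35.0 for TFF3 and of at least 4296 for each of the other 7. They moved both ways with the knockdown: KRT19 and CDH17 were called higher, EPCAM, KRT8 and KRT18 were called lower, and the median log2 difference of the 8 was 0.12. Among the squamous keratins KRT6A was listed at 0 in all 4 libraries. KRT14 had 0.637 and 2.29 without knockdown and 12.2 and 25.7 with it, while KRT5 had 32.6 and 12.1 against 6.14 and 10.5 (limma, adjusted p = 0.190).

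Markers of blood, fibroblasts and endothelium were read in the same way. PTPRC, the common marker of blood cells, had at most 2.05 in any library, and LYZ, the lysozyme of myeloid cells and of some epithelia, had 78.7 and 59.2 without knockdown and 47.3 and 29.2 with it (limma, adjusted p = 0.0994). COL1A1, a fibroblast collagen, had 179 and 108 against 202 and 212 (limma, adjusted p = 0.128). Of the other fibroblast genes, COL1A2 had 4.89 and 3.34 against 3.59 and 3.04, too low to be tested, and DCN had 11.7 and 10.3 against 17.03 and 8.05 (limma, adjusted p = 0.931). VWF, an endothelial protein, had 8.55 and 6.68 against 47.5 and 36.4, and CDH5, the endothelial cadherin, had 16.0 and 8.48 against 16.5 and 10.7. KRT14 and VWF reached the filter, a mean of 10 over all libraries, through the knockdown libraries alone, so their values are given without a test. In the columnar list 5 of 8 genes were called, where 14.1% of all tested genes were. The part of these markers in the GATA values was not tested. The total of normalized counts lay between 17912507 and 18613685 per library.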

How the data were processed

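Members and gene lists were chosen with earlier results of these data known. Peaks, −log10 p, −log10 q, fold ratios and scores are as deposited by the authors, 1 library per list and no header; the submitters' processing notes name Trim Galore, Bowtie, Bowtie2, Picard, MACS2 and hg19, without roles. The score equals the whole part of 10 times −log10 q in each deposited list. Normalized counts are a fractional signal the authors deposited, with no normalization method given in the sources used here. Coordinates count from 1. Fragment numbers were solved from fold and p (Python 3.11.15, SciPy 1.17.1) and the solver was tested on simulated peaks. Expression was fitted with limma 3.58.1 in R 4.3.3 on log2(normalized count + 1), for genes with a mean of at least 10, with eBayes trend, no block and Benjamini-Hochberg adjustment, called under 0.05, and tested on simulated data. Where nothing says that libraries came from separate cultures, p-values measure only the spread between them. With 2 libraries a group, an exact permutation test of 1 gene cannot go below 0.333. Peaks named are the 15 members of largest fold, the 3 nearest on each side of the threshold, the 3 nearest to HNF4A and the densest windows; others are marked. Motifs, start sites and nearest genes had been planned for a genome or annotation of hg19 and were not run. The 4C libraries were not analysed here.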

Additional observations from a re-analysis of the deposited data

How the results depend on the processing

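With a −log10 q of at least 5 there were 1848 members, and with at least 20 there were 234. Other HNF4A overlap rules gave 827 (HNF4A within 500 bp also removed), 870 (HNF4A over the summit) and 911 (reciprocal overlap of 50%). Leaving out sites with a fold under 3 or a background over 2.5, both chosen after seeing the data, gave 809 and 773. The share of members within 10 kb of another GATA4 peak was 17.5% at the threshold of 20 and 7.89% at backgrounds of at most 2.5; the cause was not tested. In limma 2202 genes were called, 726 without the filter, which tests more genes, and 0 without the variance trend, where 3524 had an unadjusted p under 0.05; the cause was not tested. Leaving out 1 library gave 1013 to 2449 calls, the lowest 2 without siHNF4A replicate 2 (1013) and without siHNF4A replicate 1 (1101). The log2 difference of GATA4 lay between -0.62 and -0.27 with 1 library left out, and passed the threshold without control replicate 2 (adjusted p = 0.00845 in limma) and without siHNF4A replicate 1 (adjusted p = 0.0410). Each such fit leaves 1 library in a group, assumed to vary like the other group. With a replicate block it was -0.45 (limma, adjusted p = 0.0127), and 2428 genes were called; same-numbered libraries did not deviate together (Pearson correlation of -0.019 across 15577 genes, which are not independent), and the numbers give no pairing. Over all its alternatives the adjusted p of GATA4 ran from 0.00845 to 0.350. Depth limits the members: 15 fragments carry an interval of 8.40 to 24.7. No alternative of sequence, start site or nearest gene was run.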
